A study of Drosophila melanogaster with 9 samples.

Results

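The 39 genes described here encode ion channels that neurons use: a voltage-gated sodium channel and its subunit, voltage-gated calcium channels, potassium channels, the hyperpolarization-activated channel, chloride channels opened by GABA, glutamate or histamine, nicotinic acetylcholine receptors and NMDA receptors. They were taken from a list of named channel genes and matched by FlyBase identifier to a count table of 17611 genes, in which all 39 were found. RNA-seq was performed on 9 Drosophila libraries labelled as brain of L3 larvae, the last larval stage, with 3 libraries each for an L(3)mbt mutant, a Lint-O mutant and yw. By the study's methods, the L(3)mbt mutant carried ts1, a temperature-sensitive allele of l(3)mbt, whose chromatin-binding product is named after malignant brain tumours. The Lint-O mutant is described as carrying a CRISPR allele with a deletion of a single nucleotide in Lint-O, which encodes a partner protein of L(3)mbt, so it stands for 1 allele. The control strain yw (y1 w1118) was the wild type of the study, and the same yellow and white background was shared by the Lint-O mutant. The L(3)mbt stock is listed with a different background (w*, kept over a balancer). In comparisons of the L(3)mbt mutant, allele and strain background therefore cannot be told apart. The larvae are described as laid at 25 °C and kept at 29 °C for 5 to 6 days, and the sources do not say how many larvae were pooled per library. The question for these genes was which of them were present in yw and which were higher in the mutants.

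Neurons signal by opening such channels in sequence. Sodium channels carry the rising phase of the action potential, potassium channels end it and set the firing rate, and calcium channels at the nerve terminal couple it to transmitter release. In the insect brain acetylcholine is the main fast excitatory transmitter and acts on nicotinic receptors, which are assembled from alpha and beta subunits, while GABA, glutamate and histamine can open chloride channels that silence the cell. Several of these channels are also used outside neurons, for example in muscle and in epithelia.

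The label of the tissue was checked against marker genes, and many of the neural markers were near 0 while others were well above it. CPM are counts scaled to equal library totals. Of 7 neuron markers, nSyb, brp, Syt1 and fne were under 1 CPM in all 9 libraries, with a highest value of 0.853 CPM, whereas elav was at 48.0 to 74.1 CPM, Syx1A at 55.5 to 81.2 CPM and onecut at 1.13 to 7.60 CPM. Of 7 neuroblast markers, dpn, ase, grh and klu were under 1 CPM throughout, whereas insc was at 22.4 to 33.2 CPM, wor at 6.61 to 11.6 CPM and mira at 2.38 CPM or more. Of 5 glial markers, repo and alrm were under 1 CPM throughout, and loco, at 132 to 173 CPM, moody, at 56.7 to 83.4 CPM, and wrapper, at 16.8 to 66.3 CPM, exceeded 10 CPM in every library. Against yw, onecut, wrapper and mira were called higher in both mutants, loco was called lower in both, and moody, Syx1A and wor were called lower in L(3)mbt mutants. The log2 fold changes of onecut were 1.53 in L(3)mbt mutants and 2.36 in Lint-O mutants, those of wrapper 1.83 and 1.33, and those of mira 0.69 and 1.02, and the part of these cells in the changes of the channel genes was not tested. The 4 markers of ovarian somatic cells all exceeded 10 CPM in every library, and tj, which encodes a transcription factor of gonadal somatic cells, was at 403 to 623 CPM. Of these 4, Fas3 was called higher (0.89) and flam lower (-1.13) in L(3)mbt mutants on the log2 scale, and none was called in Lint-O mutants. In the sample descriptions the columns of yw bear the name EGFP, and the study also sequenced RNA of cultured ovarian somatic cells after knockdown, with GFP siRNA as control. Whether these counts came from the labelled brains could not be settled from the sources, so the group names below are those of the labels, and the values are not read as levels in neurons. The genes named by the labels were lower in their own mutants. Counts of l(3)mbt, on the normalized scale explained below, were 1733, 1909 and 1744 in L(3)mbt mutants and 3896, 4352 and 4418 in Lint-O mutants, against 2915, 3326 and 3371 in yw. Those of Lint-O were 580.1, 576 and 572 in L(3)mbt mutants and 88.8, 79.9 and 83.7 in Lint-O mutants, against 511, 503 and 505 in yw. Total counts ran from 18681293 to 31519287 per library, and all replicate pairs differed by more than counting noise. The study calls the brain libraries biological triplicates, but how many larvae or dissections each holds is not given, and p-values measure the spread between these libraries. In bulk RNA, fewer cells of a type and less RNA per cell cannot be told apart.

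Most of the 39 genes were scarce in yw. At least 1 CPM in all 3 yw libraries was reached by 14 of them (35.9%), against 52.7% of the 13947 protein-coding genes in the table. These 14 were the sodium channel subunit gene tipE, the calcium channel genes cac and stj, the potassium channel genes Shal, Shaw, eag, sei, KCNQ and SK, the cation channel gene Ih, the histamine receptor gene HisCl1, and nAChRalpha1, nAChRalpha4 and nAChRbeta2. Of these, 7 had at least 10 CPM in all yw libraries, namely cac, Shaw, eag, sei, SK, nAChRalpha1 and nAChRbeta2. In L(3)mbt mutants 19 genes had at least 1 CPM in all 3 libraries, the same 14 plus Ca-alpha1D, Ca-alpha1T, Grd, nAChRalpha3 and nAChRalpha7. In Lint-O mutants there were 16, the same 14 plus Ca-alpha1D and nAChRalpha3. Grd, at 0.913 to 1.18 CPM, and nAChRalpha7, at 0.740 to 1.69 CPM, already lay on both sides of this limit in yw. Their log2 fold changes in L(3)mbt mutants, 0.17 for Grd and 0.83 for nAChRalpha7, were not called. Shares of all genes at this limit in the mutants are not given here, so nothing particular to the channel genes is read from these additions. A more lenient limit of over 3 counts in all yw libraries was passed by 24 genes. A count of 0 allows up to 3 counts, which is 0.0952 to 0.161 CPM depending on the library, and this covers counting error only.

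**Figure D1:**
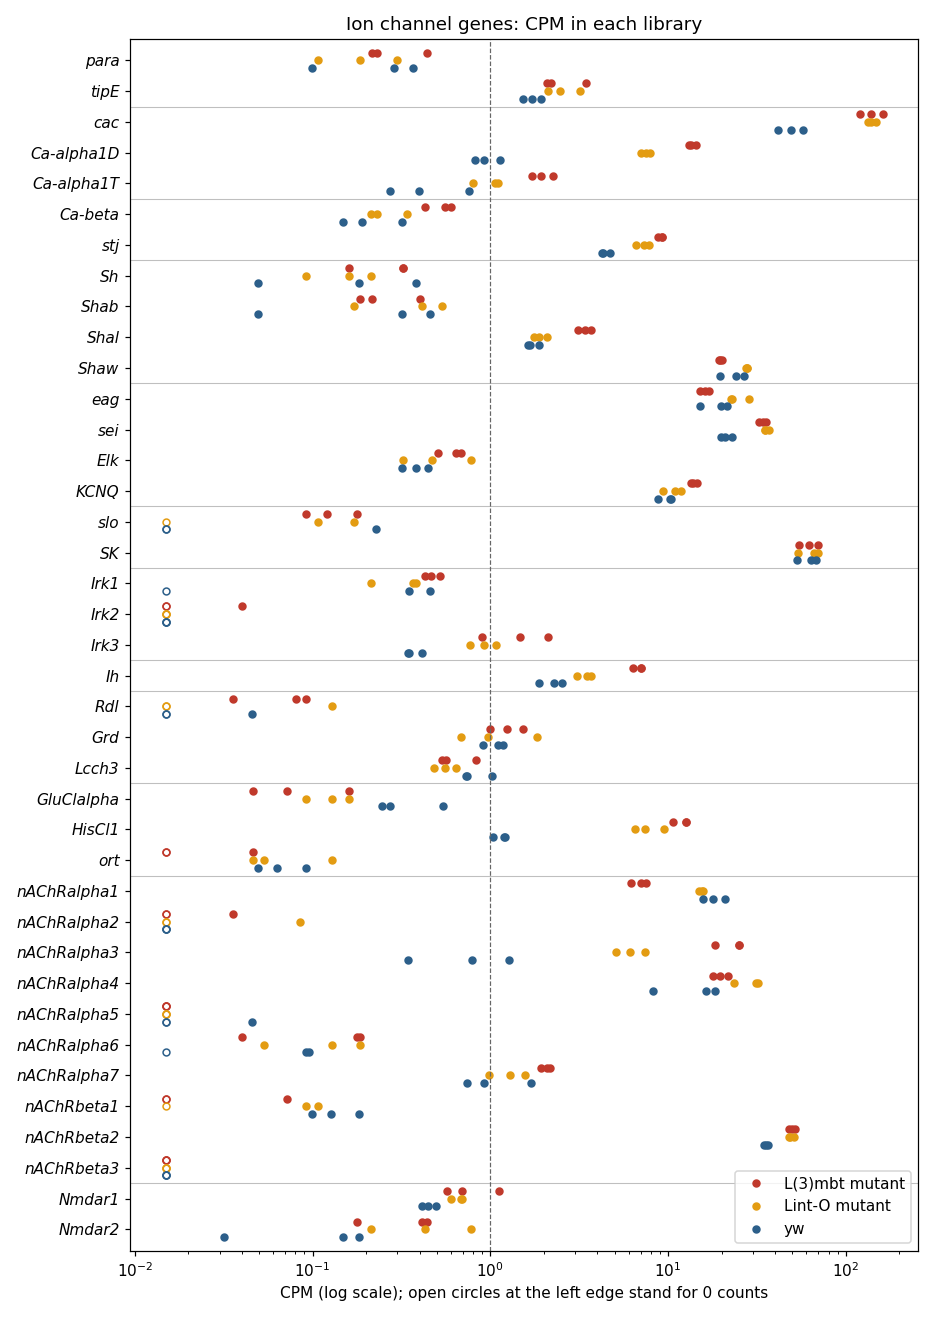
CPM (x axis, log scale) of each of the 39 ion channel genes (rows, grouped by channel class) in each of the 9 libraries, with L(3)mbt mutant in red, Lint-O mutant in orange and yw in blue, and open circles for 0 counts. 17 genes lie left of the dashed line at 1 CPM in all 9 libraries, and Ca-alpha1D, HisCl1 and nAChRalpha3 show mutant points well to the right of the yw points.

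Channels that carry the classical action potential were among the scarce ones. The gene para, which encodes the voltage-gated sodium channel of the fly action potential, had 0.215 to 0.441 CPM in L(3)mbt mutants, 0.107 to 0.299 CPM in Lint-O mutants and 0.0986 to 0.365 CPM in yw. The voltage-gated potassium channel genes Sh and Shab and the calcium-activated potassium channel gene slo also stayed under 1 CPM in every library. So did Rdl, the main GABA receptor subunit gene, and nAChRbeta1, nAChRalpha2, nAChRalpha5 and nAChRalpha6. Irk2, Rdl, ort, nAChRalpha2, nAChRalpha5 and nAChRbeta3 had at most 3 counts in each of the 9 libraries, so at this depth they were at or near 0. Of these, nAChRbeta3 alone had no count in any library. The 0 of nAChRbeta3 is a special case, because 100% of its exon bases lie opposite exons of Ets21C. Of 74 protein-coding genes with over 99% of their exon bases opposite another gene, all 74 had no count in any library, so such a gene was not measured by this table. Irk1 shares 61.0% of its exon bases with genes on its own strand (CG46310 among its partners) and was measured only through the rest.

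Levels can be set in order only per length, here as CPM per kb of exon (mean ± SD, n = 3). In yw the highest was nAChRbeta2, a beta subunit gene of the nicotinic receptor, at 8.89 ± 0.222, and its range lay apart from that of the next gene. The next 4, sei (6.46 ± 0.461), SK (5.67 ± 0.711), Shaw (4.71 ± 0.731) and cac (4.14 ± 0.657), overlapped from one to the next, so their order is not fixed beyond the spread. KCNQ (2.53 ± 0.238), nAChRalpha4 (2.37 ± 0.884), eag (1.76 ± 0.311) and nAChRalpha1 (1.65 ± 0.239) formed a further run of overlapping neighbours, followed by stj (0.705 ± 0.0395) and HisCl1 (0.61 ± 0.0498). In the mutants cac stood at rank 2, with 11.7 ± 1.72 CPM per kb in L(3)mbt mutants and 11.8 ± 0.639 CPM per kb in Lint-O mutants. Its range overlapped those of nAChRbeta2 and sei in both mutants, so the place of cac among these 3 genes is not fixed beyond the spread. By this length, every value of nAChRbeta2 lay above every value of sei in each mutant. HisCl1 stood at rank 4 in L(3)mbt mutants (6.39 ± 0.603 CPM per kb) and at rank 7 in Lint-O mutants (4.18 ± 0.824 CPM per kb), against rank 11 in yw. Exon length here is the union of all annotated exons, which can exceed the transcripts in use. With only the exon bases that no other gene overlaps, the 11 highest genes in yw kept the same order, while in both mutants cac stood at rank 3, with sei at rank 2 in L(3)mbt mutants and at rank 1 in Lint-O mutants.

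**Figure D2:**
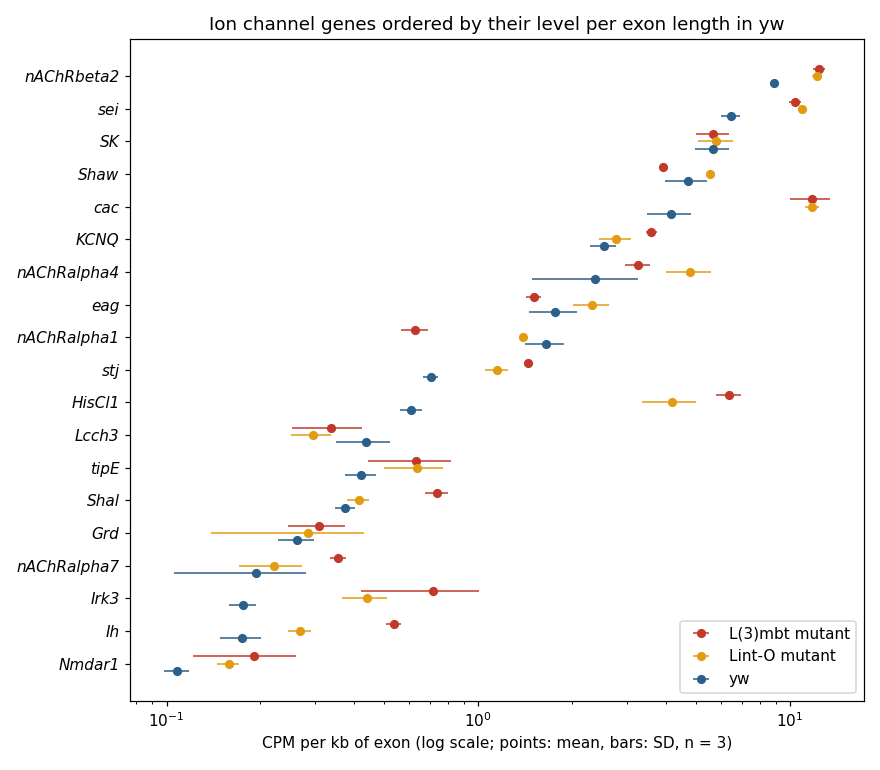
CPM per kb of exon (x axis, log scale, mean with SD, n = 3) of the ion channel genes with at least 0.1 CPM per kb in yw, ordered by their yw level from top to bottom, with L(3)mbt mutant in red, Lint-O mutant in orange and yw in blue. The mutant points of cac and HisCl1 lie right of their yw points, and the L(3)mbt point of nAChRalpha1 lies left of its yw point.

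Each mutant was set against yw with DESeq2 across all genes. Counts are given below as normalized counts, which are divided by a size factor per library, and fold changes are log2 values of mutant over yw with their standard error (SE). A gene was called at a Benjamini-Hochberg adjusted p under 0.01, and genes with too few counts for an adjusted p are given as not tested. In L(3)mbt mutants 34 of the 39 genes were tested, and 12 were called higher and 1 lower. These are 35.3% and 2.94% of the tested members, and over all 11217 genes tested 17.2% were called higher and 11.9% lower. The median fold change of the tested members was 0.62 on the log2 scale, against -0.00 over all genes tested. In Lint-O mutants 32 were tested and 8 were called higher (25.0%), where 13.4% of all 10422 genes tested were called higher and 7.52% lower. None was called lower there by DESeq2 or by edgeR, which tested 24 of the 39. At an unadjusted p under 0.05, 1 gene, nAChRalpha1, was lower. The median of the tested members was 0.38, against 0.01 over all genes. The members are not a random draw of genes, and nothing particular to them is read from these shares.

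Of the 13 genes called higher in either mutant, 7 were called in both: cac, Ca-alpha1D, stj, sei, HisCl1, nAChRalpha3 and nAChRbeta2. They make up 58.3% of the 12 called in L(3)mbt mutants and 87.5% of the 8 called in Lint-O mutants, and both comparisons share the yw libraries. The matching shares over all genes are not given here, so nothing particular to the channel genes is read from this overlap. Ca-alpha1T, Shal, KCNQ, Irk3 and Ih were called higher in L(3)mbt mutants and not called in Lint-O mutants, and nAChRalpha4 the other way round. The gene called lower in L(3)mbt mutants was nAChRalpha1. Summed over all 39 genes, the level was 404 to 477 CPM in L(3)mbt mutants and 413 to 467 CPM in Lint-O mutants, against 242 to 299 CPM in yw. The gene cac alone made up 29.8% to 33.8% of this sum in L(3)mbt mutants and 31.4% to 32.3% in Lint-O mutants, against 17.2% to 19.2% in yw.

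**Figure D3:**
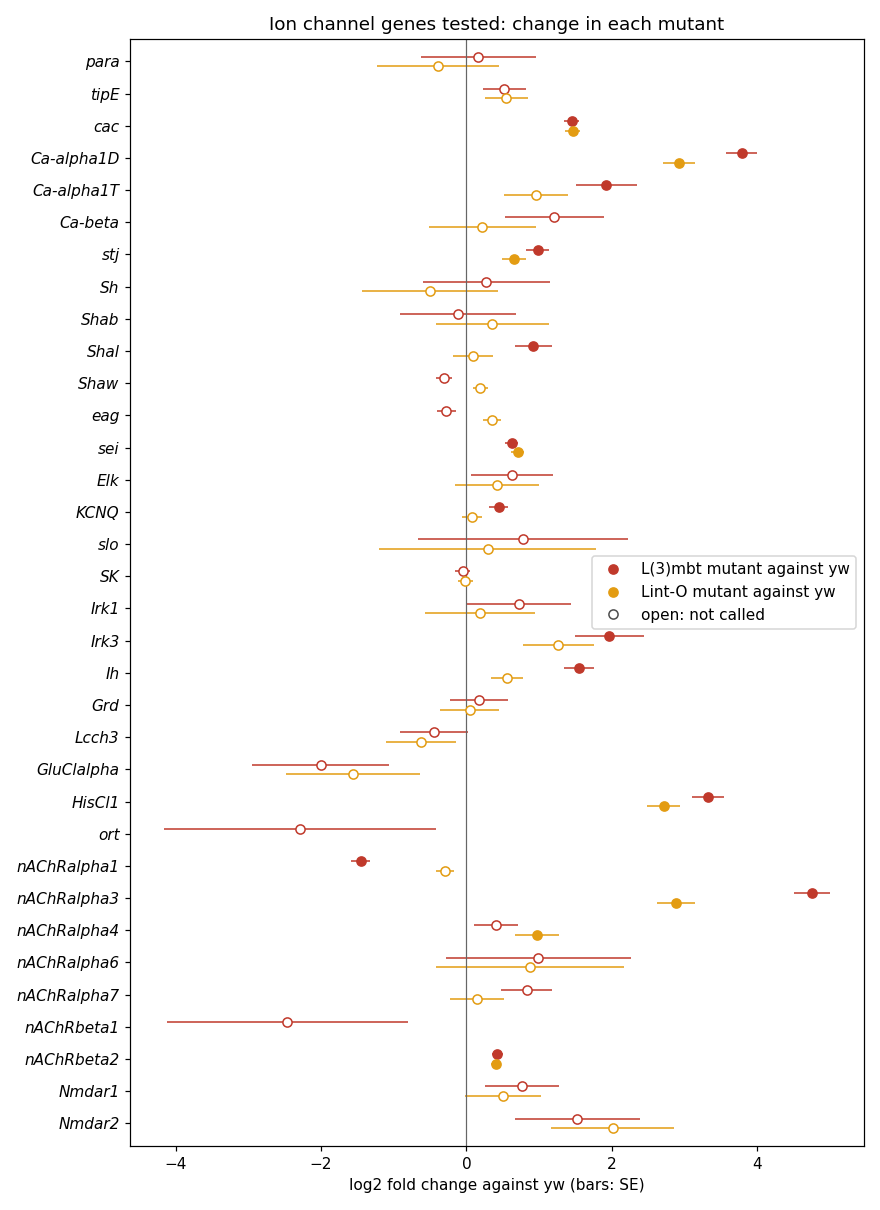
DESeq2 log2 fold change against yw (x axis, bars show SE) of the 34 ion channel genes tested in L(3)mbt mutants (red) with their value in Lint-O mutants (orange, 32 tested), filled where called and open where not called. Filled points lie right of 0 for 12 genes in L(3)mbt mutants and 8 in Lint-O mutants, and nAChRalpha1 is the filled point left of 0.

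Of the 5 calcium channel genes, 4 were called higher in L(3)mbt mutants and 3 in Lint-O mutants. Over all genes tested, 17.2% were called higher in L(3)mbt mutants and 13.4% in Lint-O mutants. Nothing particular to so small a class is read from these counts. All 3 genes of pore subunits were called higher in L(3)mbt mutants and 2 of 3 in Lint-O mutants, and of the 2 genes of auxiliary subunits stj was called in both. The gene cac (FBgn0263111, X:11931280-11985087 in dm6) encodes the pore of the presynaptic calcium channel that triggers transmitter release. Its normalized counts were 3149, 3658 and 2767 in L(3)mbt mutants and 3178, 3394 and 3076 in Lint-O mutants, against 1354, 1160.4 and 1000.2 in yw. Every mutant library lay above every yw library, and the mutants overlapped each other. Expression was 2.73-fold that of yw in L(3)mbt mutants, a log2 fold change of 1.45 (SE 0.10) with a DESeq2 adjusted p of 2.45e-43. In Lint-O mutants it was 2.75-fold that of yw, with 1.46 (SE 0.10) and a DESeq2 adjusted p of 1.1e-43.

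Ca-alpha1D (FBgn0001991, 2L:16165831-16190540) encodes the L-type pore subunit, which acts in neuronal dendrites and in muscle contraction. Normalized counts were 297, 326 and 311 in L(3)mbt mutants and 162, 179.8 and 174 in Lint-O mutants, against 19.4, 26.8 and 22.1 in yw. The 3 groups did not overlap, and the Lint-O mutant lay between the others. The log2 fold change was 3.78 (SE 0.22), or 13.8-fold, in L(3)mbt mutants (DESeq2 adjusted p = 1.1e-65). It was 2.92 (SE 0.22), or 7.59-fold, in Lint-O mutants (DESeq2 adjusted p = 1.63e-37). Ca-alpha1T (FBgn0264386, X:6104085-6192483), the gene of the low-threshold T-type pore subunit, was expressed at far fewer counts. The normalized counts were 43.7, 51.3 and 39.4 in L(3)mbt mutants and 24.4, 25.2 and 18.5 in Lint-O mutants, against 6.47, 9.31 and 18.3 in yw, and the groups did not overlap, though the lowest Lint-O library and the highest yw library nearly met. It was called in L(3)mbt mutants at 1.92 (SE 0.42, DESeq2 adjusted p = 2.77e-05), while the Lint-O value of 0.95 (SE 0.44) was not (DESeq2 adjusted p = 0.093).

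Of the auxiliary subunits, stj (FBgn0261041, 2R:13805794-13819571) encodes the extracellular subunit that brings calcium channels to the presynaptic membrane. Its normalized counts were 210.4, 210.4 and 200.5 in L(3)mbt mutants and 150.2, 166 and 179 in Lint-O mutants, against 111, 100.1 and 104 in yw, again without overlap between groups. It was called in L(3)mbt mutants at 0.98 (SE 0.16, DESeq2 adjusted p = 5.52e-09) and in Lint-O mutants at 0.65 (SE 0.16, DESeq2 adjusted p = 0.000477). Without Lint-O mutant replicate 3 the Lint-O value was 0.59 and no longer called (DESeq2 adjusted p = 0.0106). Ca-beta, the gene of the cytoplasmic subunit, had 9.86 to 13.7 normalized counts in L(3)mbt mutants, 4.93 to 7.80 in Lint-O mutants and 3.49 to 7.54 in yw, and was not called. Calcium channels also work in muscle, so the muscle markers are given here. Their summed level was 74.5 to 79.3 CPM in L(3)mbt mutants and 50.6 to 56.7 CPM in Lint-O mutants, against 35.3 to 42.2 CPM in yw. Of the 5 markers Mlc2 and Act57B were called higher in L(3)mbt mutants and Mlc2 in Lint-O mutants, and up and wupA were under 1 CPM in all libraries. The fifth, Mhc, was at 17.8 to 25.5 CPM and was not called, with -0.06 in L(3)mbt mutants and 0.21 in Lint-O mutants on the log2 scale. The part of muscle in the result was not tested.

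**Figure D4:**
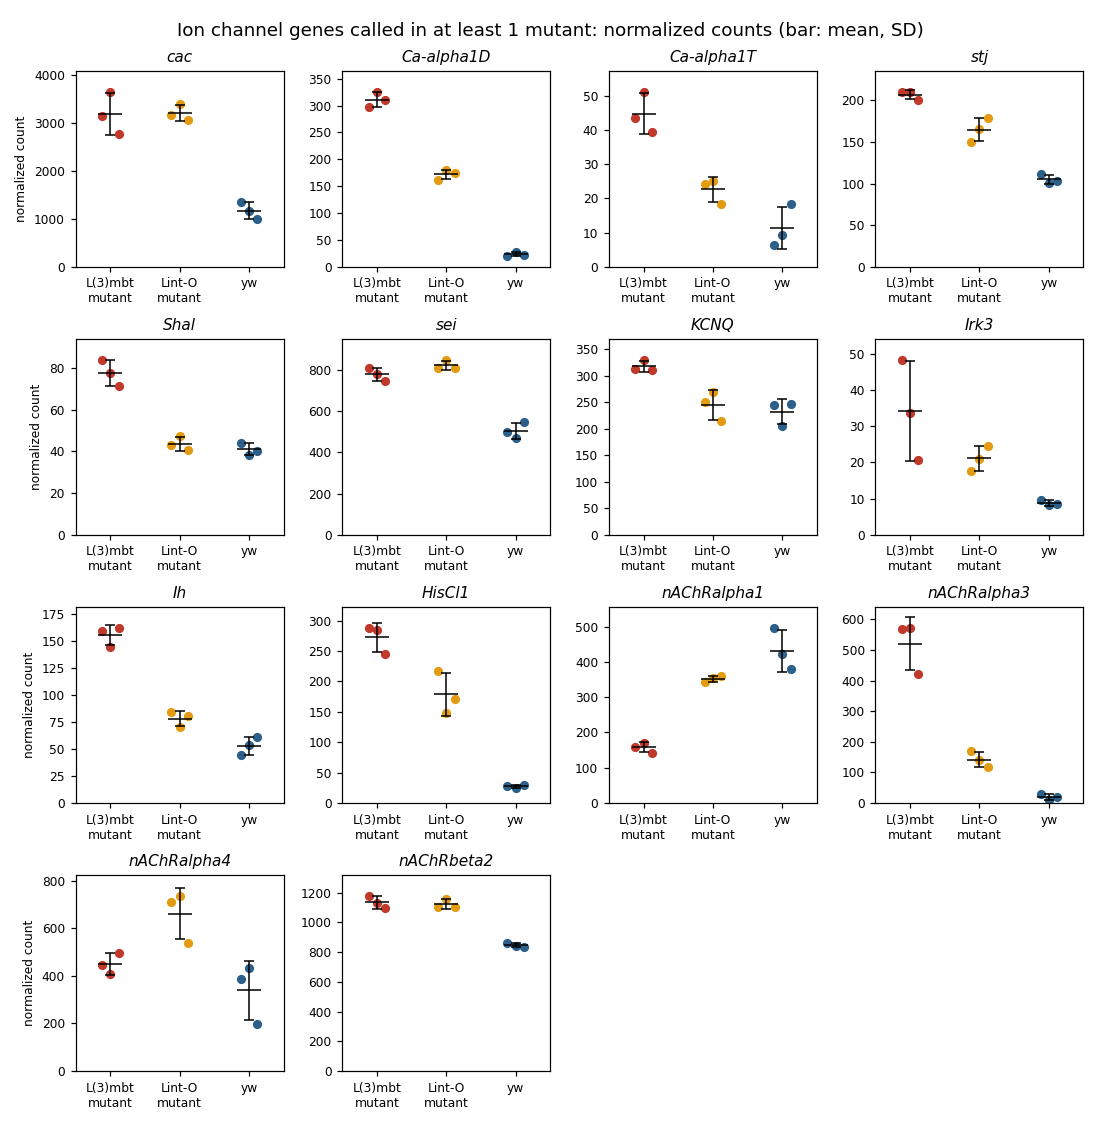
Normalized counts (y axes, linear from 0) of the 14 ion channel genes called in at least 1 mutant against yw, with 1 point per library and a bar for mean and SD (n = 3), in the order L(3)mbt mutant, Lint-O mutant and yw. cac, sei and nAChRbeta2 stand at like heights in both mutants, Ca-alpha1D, HisCl1 and nAChRalpha3 step down from the L(3)mbt mutant to the Lint-O mutant to yw, and nAChRalpha1 shows the opposite order.

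Among the potassium channel genes, sei was the one called higher in both mutants. Of the 13 potassium channel genes, 4 were called higher in L(3)mbt mutants, 1 in Lint-O mutants and none lower by DESeq2. Among all genes tested, 17.2% were called higher and 11.9% lower in L(3)mbt mutants, and 13.4% and 7.52% in Lint-O mutants. At an unadjusted p under 0.05, Shaw and eag were lower in L(3)mbt mutants, and edgeR called Shaw lower there. In Lint-O mutants none of the 13 was lower at an unadjusted p under 0.05 or by edgeR, which did not test all of them. The gene sei (FBgn0003353, 2R:24047411-24053035) encodes an ERG-type channel that protects flies from seizures at high temperature. Its normalized counts were 806, 778 and 746 in L(3)mbt mutants and 807, 847 and 810.2 in Lint-O mutants, against 496, 467 and 547 in yw. All mutant libraries were above all yw libraries, by 0.62 (SE 0.09) in L(3)mbt mutants (DESeq2 adjusted p = 3.79e-11) and 0.70 (SE 0.09) in Lint-O mutants (DESeq2 adjusted p = 1.04e-13). Exons of gammaSnap1 and ppk29 lie opposite 14.6% of the exon bases of sei, and neither gene was called in either mutant.

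Shal (FBgn0005564, 3L:19566851-19584568), the gene of a fast inactivating dendritic channel, had normalized counts of 83.8, 77.5 and 71.5 in L(3)mbt mutants and 42.9, 47.3 and 40.6 in Lint-O mutants, against 44.2, 38.4 and 40.3 in yw. The L(3)mbt mutant stood above both other groups, which overlapped. Its change in L(3)mbt mutants was 0.92 (SE 0.26, DESeq2 adjusted p = 0.00136), and in Lint-O mutants 0.09 (SE 0.27, DESeq2 adjusted p = 0.863). The L(3)mbt call was lost without L(3)mbt mutant replicate 1 (0.86), yw replicate 2 (0.88) or yw replicate 3 (0.91). KCNQ (FBgn0033494, 2R:10145897-10192394) encodes a slow channel that damps repetitive firing, and its normalized counts were 312, 329.8 and 311 in L(3)mbt mutants and 251, 269 and 214 in Lint-O mutants, against 245, 206 and 247 in yw. Here too the L(3)mbt libraries were the highest, and the other groups overlapped. It was called in L(3)mbt mutants at 0.44 (SE 0.13, DESeq2 adjusted p = 0.00263), with 0.07 (SE 0.13) in Lint-O mutants (DESeq2 adjusted p = 0.763). This call was lost without any 1 of the L(3)mbt mutant libraries (0.42 to 0.46) and without yw replicate 2 (0.37). Exons of CG18011 and of an antisense RNA gene lie opposite 27.4% of the exon bases of KCNQ, and CG18011 was not called in either mutant. Irk3 (FBgn0032706, 2L:18711071-18713748), an inward rectifier gene, was low and spread widely, with normalized counts of 48.3, 33.5 and 20.5 in L(3)mbt mutants and 17.6, 21.0 and 24.6 in Lint-O mutants, against 9.7, 8.15 and 8.37 in yw. The mutant libraries all exceeded yw, at 1.96 (SE 0.48) in L(3)mbt mutants (DESeq2 adjusted p = 0.000196) and 1.27 (SE 0.49) in Lint-O mutants (DESeq2 adjusted p = 0.0385). Without L(3)mbt mutant replicate 1 its L(3)mbt value was 1.62 and not called (DESeq2 adjusted p = 0.0133). Exons of Grip71, which was not called in either mutant, lie opposite 10.8% of the exon bases of Irk3.

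The abundant potassium channel genes Shaw, eag and SK were not called in either mutant against yw. Shaw (FBgn0003386, 2L:3718185-3729145), whose product gives a slowly activating current, had normalized counts of 443, 438 and 461 in L(3)mbt mutants and 639, 638 and 628 in Lint-O mutants, against 635, 568 and 471 in yw. All L(3)mbt libraries lay below those of yw, and the Lint-O mutant overlapped yw. The change was -0.31 (SE 0.11) in L(3)mbt mutants (DESeq2 adjusted p = 0.0126) and 0.19 (SE 0.11) in Lint-O mutants (DESeq2 adjusted p = 0.18). With edgeR or with edgeR's size factors the L(3)mbt value was -0.34 and called lower, as it was at -0.31 after a minimum of 10 counts in 3 libraries and at -0.43 without yw replicate 3. For eag (FBgn0000535, X:14955477-15009989), which encodes the founding member of the ether-a-go-go channels, the normalized counts were 364, 384 and 347 in L(3)mbt mutants and 518, 649.7 and 526 in Lint-O mutants, against 469.9, 504 and 361 in yw. The L(3)mbt mutant overlapped yw, and the Lint-O mutant lay above both. Its changes of -0.28 (SE 0.13) in L(3)mbt mutants (DESeq2 adjusted p = 0.0782) and 0.35 (SE 0.13) in Lint-O mutants (DESeq2 adjusted p = 0.026) were not called. Leaving out yw replicate 3 gave -0.42 and a call in L(3)mbt mutants, and leaving out yw replicate 2 gave 0.45 and a call in Lint-O mutants. SK (FBgn0029761, X:5340236-5405138), the small-conductance calcium-activated channel gene, had normalized counts of 1412, 1574 and 1246 in L(3)mbt mutants and 1508, 1592 and 1245 in Lint-O mutants, against 1609, 1511 and 1276 in yw. All 3 groups overlapped, at -0.05 (SE 0.11) in L(3)mbt mutants and -0.01 (SE 0.11) in Lint-O mutants.

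Ih (FBgn0263397, 2R:14276130-14300095) encodes the channel that opens on hyperpolarization and supports rhythmic firing. It had normalized counts of 159, 144 and 162 in L(3)mbt mutants and 83.9, 70.4 and 80.0 in Lint-O mutants, against 44.2, 53.5 and 60.9 in yw, and the groups did not overlap. It was called in L(3)mbt mutants at 1.54 (SE 0.21, DESeq2 adjusted p = 1.48e-12), while 0.55 (SE 0.22) in Lint-O mutants missed the threshold (DESeq2 adjusted p = 0.0445). Its neighbour tej, a germline piRNA pathway gene named here after its values were seen, lies 8 bp beyond the end of Ih on the opposite strand. The gene tej averaged 840.4 normalized counts in L(3)mbt mutants and 334 in Lint-O mutants, against 35.4 in yw, with a log2 fold change of 4.60 in L(3)mbt mutants and 3.27 in Lint-O mutants. Whether reads from tej reached the counts of Ih was not tested.

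Among the chloride channels opened by transmitters, HisCl1 stood out and the rest were scarce. HisCl1 (FBgn0037950, 3R:11787176-11789393) encodes a histamine-gated chloride channel known from the visual system, where photoreceptors release histamine. It had normalized counts of 288, 285 and 245 in L(3)mbt mutants and 217, 148 and 171 in Lint-O mutants, against 28.0, 24.4 and 28.9 in yw. No library of one group reached those of another, and yw was the lowest. Expression was 9.96-fold that of yw in L(3)mbt mutants, at 3.32 (SE 0.22, DESeq2 adjusted p = 1.55e-48). In Lint-O mutants it was 6.56-fold, at 2.71 (SE 0.23, DESeq2 adjusted p = 2.36e-31). Exons of Sbf lie opposite 5.40% of its exon bases, and Sbf itself had a log2 fold change of -0.33 in L(3)mbt mutants and 0.18 in Lint-O mutants. The other histamine receptor gene, ort, had at most 3 counts in any library. GluClalpha, the glutamate-gated chloride channel gene, had normalized counts of 3.64, 1.05 and 1.64 in L(3)mbt mutants and 2.93, 2.1 and 3.69 in Lint-O mutants, against 6.47, 5.82 and 12.9 in yw. Both mutants lay below all yw libraries, but at so few counts the change of -2.01 (SE 0.94) in L(3)mbt mutants (DESeq2 adjusted p = 0.0819) was not called. The GABA receptor subunit genes Grd and Lcch3 had 11.1 to 41.9 normalized counts over the 9 libraries and were not called.

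The 10 nicotinic acetylcholine receptor genes had calls in both directions. Of 7 tested in L(3)mbt mutants, 2 were called higher and 1 lower. Of 6 tested in Lint-O mutants, 3 were called higher and none lower. edgeR, which tested 5, also called none lower in Lint-O mutants, where nAChRalpha1 was lower at an unadjusted p under 0.05. The shares over all genes tested were 17.2% higher and 11.9% lower in L(3)mbt mutants, and 13.4% and 7.52% in Lint-O mutants. The widest change was in nAChRalpha3 (FBgn0015519, X:8276200-8367169), a gene of a ligand-binding alpha subunit. It had normalized counts of 569, 572 and 419.9 in L(3)mbt mutants and 169, 139.8 and 117 in Lint-O mutants, against 30.2, 8.15 and 19.0 in yw. The yw libraries were all near the bottom, those of the Lint-O mutant lay between, and those of the L(3)mbt mutant were at the top with no overlap. Expression was 26.9-fold that of yw in L(3)mbt mutants, at 4.75 (SE 0.25, DESeq2 adjusted p = 7.96e-79). In Lint-O mutants it was 7.38-fold, at 2.88 (SE 0.26, DESeq2 adjusted p = 1.8e-27).

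In contrast, nAChRalpha1 (FBgn0000036, 3R:24393896-24457157), another alpha subunit gene, had normalized counts of 159, 171 and 142 in L(3)mbt mutants and 341, 353 and 359.6 in Lint-O mutants, against 496, 421 and 378 in yw. The L(3)mbt mutant was far below the other groups, and the Lint-O mutant was just below yw. Its change in L(3)mbt mutants was -1.46 (SE 0.13, DESeq2 adjusted p = 3.59e-26), which puts yw at 2.74-fold the L(3)mbt level. In Lint-O mutants it was -0.29 (SE 0.13) and not called (DESeq2 adjusted p = 0.0651). The most abundant subunit gene per length, nAChRbeta2 (FBgn0004118, 3R:24509228-24515106), had normalized counts of 1177, 1133 and 1095 in L(3)mbt mutants and 1106, 1161 and 1102 in Lint-O mutants, against 864, 841 and 836 in yw. Both mutants exceeded every yw library by a small and even step, 0.42 (SE 0.07) in L(3)mbt mutants (DESeq2 adjusted p = 6.57e-08) and 0.41 (SE 0.07) in Lint-O mutants (DESeq2 adjusted p = 4.29e-07). These genes lie together on 3R, within 121 kb, with nAChRalpha2 between them at 28.3 kb from nAChRalpha1 and 18.1 kb from nAChRbeta2. Neighbours in this group thus differed widely, as nAChRalpha2 was at or under 3 counts in every library, nAChRalpha1 was lower in L(3)mbt mutants and nAChRbeta2 was higher in both mutants.

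The gene nAChRalpha4 (FBgn0266347, 3L:23206669-23287448) was called in Lint-O mutants, with normalized counts of 443, 408 and 497 in L(3)mbt mutants and 710.0, 735 and 539 in Lint-O mutants, against 388, 432 and 198 in yw. The yw libraries spread widely, replicate 3 being the lowest, and overlapped those of the L(3)mbt mutant but not those of the Lint-O mutant. The Lint-O change was 0.97 (SE 0.30, DESeq2 adjusted p = 0.00663), and the L(3)mbt change was 0.41 (SE 0.30, DESeq2 adjusted p = 0.303). The Lint-O call was lost with only the Lint-O mutant and yw libraries in the fit (0.96), without Lint-O mutant replicate 1 (0.91) or replicate 2 (0.88), and without any 1 of the L(3)mbt mutant libraries (0.96 to 0.97). Of the exon bases of nAChRalpha4, 7.60% are shared with other annotated features on its own strand and 7.72% lie opposite such features. nAChRalpha7 had 44.4 to 49.2 normalized counts in L(3)mbt mutants, 22.4 to 35.7 in Lint-O mutants and 17.5 to 39.9 in yw, and its log2 fold changes of 0.83 in L(3)mbt mutants and 0.15 in Lint-O mutants were not called. The genes nAChRalpha6 and nAChRbeta1 stayed at 0 to 4.31 normalized counts.

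The genes of the sodium channel and of the NMDA receptors gave no calls. At an unadjusted p under 0.05, none of these 4 genes was lower, and Nmdar2 alone was higher, in Lint-O mutants. edgeR tested 1 of the 2 sodium channel genes and 1 of the 2 NMDA receptor genes, and called neither. tipE, whose product helps to bring the sodium channel to the membrane, had normalized counts of 50.1, 78.5 and 47.7 in L(3)mbt mutants and 73.1, 48.4 and 56.6 in Lint-O mutants, against 45.3, 40.7 and 36.5 in yw. Both mutants lay above all yw libraries, and the changes of 0.52 (SE 0.29) in L(3)mbt mutants (DESeq2 adjusted p = 0.155) and 0.55 (SE 0.29) in Lint-O mutants (DESeq2 adjusted p = 0.158) were not called. Nmdar1 and Nmdar2, which encode the obligate and the regulatory subunit of the NMDA receptor, had 0.761 to 25.5 normalized counts over the 9 libraries. Nmdar2 averaged 7.85 ± 3.25 in L(3)mbt mutants and 10.9 ± 6.54 in Lint-O mutants, against 2.85 ± 1.86 in yw (SD, n = 3 each). Its change in Lint-O mutants of 2.01 (SE 0.85) missed the threshold (DESeq2 adjusted p = 0.0595). Elk, Irk1 and Sh, with 0 to 17.9 normalized counts, likewise carried wide errors.

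The mutants were then set against each other, since a call in one and not in the other does not show a difference between them. Of 30 genes tested, 5 were called higher in L(3)mbt mutants than in Lint-O mutants and 3 lower, where 8.36% and 5.14% of all 9892 genes tested were called. The widest difference was again in nAChRalpha3, at 1.87 (SE 0.18) or 3.65-fold (DESeq2 adjusted p = 4.51e-23). Ca-alpha1D differed by 0.86 (SE 0.15, DESeq2 adjusted p = 1.98e-07), Ih by 0.99 (SE 0.20, DESeq2 adjusted p = 1.36e-05), HisCl1 by 0.60 (SE 0.17, DESeq2 adjusted p = 0.00357) and Shal by 0.83 (SE 0.26, DESeq2 adjusted p = 0.0093). Those lower in L(3)mbt mutants were nAChRalpha1, at -1.16 (SE 0.14, DESeq2 adjusted p = 9.69e-16), eag, at -0.63 (SE 0.13, DESeq2 adjusted p = 2.1e-05), and Shaw, at -0.51 (SE 0.11, DESeq2 adjusted p = 4.84e-05). The Shal difference lost its call without any 1 of the 9 libraries (0.77 to 0.89), with TMM size factors (0.81), without filtering (0.83) and with only the mutants in the fit (0.81), and that of HisCl1 without L(3)mbt mutant replicate 1 (0.56) or 2 (0.57) or Lint-O mutant replicate 2 (0.48) or 3 (0.57).

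Of the genes called higher in both mutants, cac, sei, nAChRbeta2 and stj were not called between the mutants. The difference was -0.01 (SE 0.10) for cac, -0.08 (SE 0.09) for sei and 0.02 (SE 0.07) for nAChRbeta2 (DESeq2 adjusted p between 0.578 and 0.954). For stj it was 0.33 (SE 0.15, DESeq2 adjusted p = 0.111), with 200.5 to 210.4 normalized counts in L(3)mbt mutants and 150.2 to 179 in Lint-O mutants. Among the 5 genes called in L(3)mbt mutants but not in Lint-O mutants against yw, Ih and Shal passed this direct test. Ca-alpha1T at 0.97 (SE 0.39, DESeq2 adjusted p = 0.0573), KCNQ at 0.37 (SE 0.13, DESeq2 adjusted p = 0.0262) and Irk3 at 0.70 (SE 0.43, DESeq2 adjusted p = 0.272) did not. nAChRalpha4, called in Lint-O mutants against yw, differed by -0.56 (SE 0.30) and was not called (DESeq2 adjusted p = 0.195), but it was called at -0.57 with only the mutants in the fit and at -0.56 without yw replicate 3.

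These channel genes are long and spread over the genome. Their median span was 24185 bp and their median exon length 6050 bp, against 2164 bp and 1736 bp for the protein-coding genes of the table. They were placed on 2L (7 genes), 2R (5), 3L (7), 3R (10) and X (10), so that 25.6% were on X, against 15.6% of protein-coding genes. The 13 genes called higher in at least 1 mutant had a median span of 23966 bp and 3 of them were on X. For every member, the nearest protein-coding gene on each side that did not overlap its span was looked at. Genes that overlap a member are not part of these counts. In L(3)mbt mutants 4 of 16 tested neighbours of the genes called higher were called higher (25.0%), against 9 of 35 neighbours of the other members (25.7%). In Lint-O mutants the figures were 2 of 11 (18.2%) and 8 of 39 (20.5%). Over all genes tested, 17.2% were called higher in L(3)mbt mutants and 13.4% in Lint-O mutants. The neighbours of cac, Pdzd8 and gd, were not called in either mutant, and those of HisCl1, prd1 and ClC-a, were not either. Pdzd8 and ClC-a had few counts, with group means of 3.83 to 14.0 normalized counts. DZIP1, 172 bp from nAChRbeta2, was called higher in L(3)mbt mutants (0.32) and Lint-O mutants (0.40). So was CG13563 beside sei (0.37 and 0.41), while 1 tested neighbour of the genes called higher was called lower in each mutant.

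A further 57 genes of channels, auxiliary subunits and chaperones outside the 39 were counted for comparison. In L(3)mbt mutants 10 of 44 tested were called higher (22.7%) and none lower, and in Lint-O mutants 9 of 39 were called higher (23.1%) and none lower. Over all genes tested, 17.2% were called higher and 11.9% lower in L(3)mbt mutants, and 13.4% and 7.52% in Lint-O mutants. edgeR, which tested 29 of these 57 genes, also called none lower. At an unadjusted p under 0.05 there were 4 of them lower in L(3)mbt mutants and 1 in Lint-O mutants. Their median log2 fold change was 0.49 in L(3)mbt mutants and 0.33 in Lint-O mutants. Called higher in both were Teh2, Teh3, RIC-3, Task7, sand, Ekar and SecCl. RIC-3 is related to a chaperone that assembles nicotinic receptors in the worm Caenorhabditis elegans. It had normalized counts of 363, 336 and 307 in L(3)mbt mutants and 251, 328 and 269.7 in Lint-O mutants, against 8.62, 5.82 and 3.81 in yw. The log2 fold change was 5.85 (SE 0.37) in L(3)mbt mutants (DESeq2 adjusted p = 2.63e-55) and 5.60 (SE 0.37) in Lint-O mutants (DESeq2 adjusted p = 2.69e-50). Its size is uncertain, because yw held few counts.

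Task7, a leak potassium channel gene, had normalized counts of 617, 585 and 592 in L(3)mbt mutants and 217, 234 and 199 in Lint-O mutants, against 6.47, 1.16 and 6.85 in yw. Its log2 fold change was 6.86 (SE 0.38) in L(3)mbt mutants (DESeq2 adjusted p = 1.12e-71) and 5.40 (SE 0.38) in Lint-O mutants (DESeq2 adjusted p = 1.1e-43). With so few counts in yw the size of this fold is uncertain, and it is not ranked against the 39 genes. Ekar, an eye-enriched kainate-type glutamate receptor gene, had normalized counts of 545, 525 and 538 in L(3)mbt mutants and 569, 568 and 542 in Lint-O mutants, against 34.5, 17.5 and 7.61 in yw. The mutants overlapped each other far above yw, at 4.79 (SE 0.38) in L(3)mbt mutants (DESeq2 adjusted p = 2.55e-35) and 4.86 (SE 0.38) in Lint-O mutants (DESeq2 adjusted p = 5.54e-36). The smaller changes were those of SecCl, a ligand-gated chloride channel gene, at 1.89 in L(3)mbt mutants and 1.38 in Lint-O mutants, and of sand. The gene sand, a leak potassium channel gene of sleep-promoting neurons, averaged 80.5 ± 18.3 normalized counts in L(3)mbt mutants and 54.7 ± 9.67 in Lint-O mutants, against 27.6 ± 8.23 in yw (SD, n = 3 each).

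Teh2, Teh3 and Teh4 are homologs of tipE and lie next to it on 3L, within a stretch that begins at 4174859 with Teh4 and ends at 4193788 with tipE. Teh2 had normalized counts of 46.4, 59.7 and 44.4 in L(3)mbt mutants and 64.4, 65.2 and 54.2 in Lint-O mutants, against 16.2, 12.8 and 9.9 in yw, and was called at 1.97 in L(3)mbt mutants and 2.27 in Lint-O mutants. Teh3 was called in both, but its yw libraries held only 2, 2 and 3 counts, against 12.3 to 20.9 normalized counts in the mutants, so no fold is given. Teh4 had normalized counts of 12.7, 35.6 and 8.22 in L(3)mbt mutants and 10.7, 11.6 and 9.85 in Lint-O mutants, against 3.23, 2.33 and 1.52 in yw. Its yw libraries also held only 3, 2 and 2 counts, so no fold is given. It was called higher in L(3)mbt mutants (DESeq2 adjusted p = 0.000667), where replicate 2 was the highest by far, and missed the threshold in Lint-O mutants (DESeq2 adjusted p = 0.0260). Teh2 and Teh3 share 6.97% and 14.4% of their exon bases with each other. The values of tipE itself, given above, were not called. Markers of the germline were also higher in both mutants. Their summed level was 290 to 348 CPM in L(3)mbt mutants and 153 to 158 CPM in Lint-O mutants, against 5.30 to 6.86 CPM in yw, with 4 of 6 called higher in both mutants, aly and can under 1 CPM in all libraries, and their part in the changes of the channel genes was not tested.

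**Figure D5:**
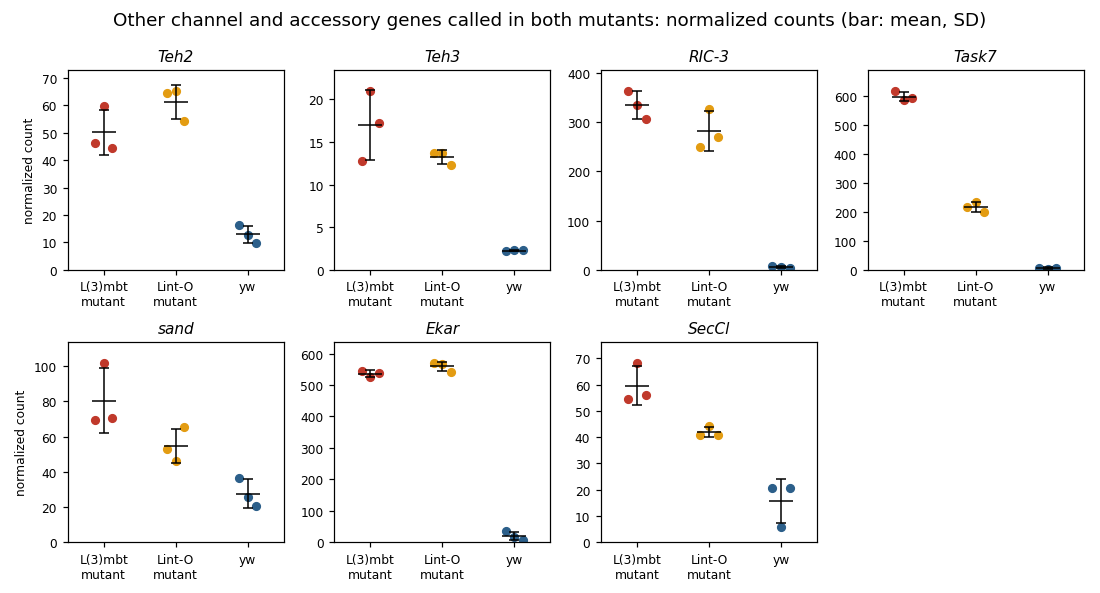
Normalized counts (y axes, linear from 0) of the 7 channel and accessory genes outside the 39 that were called in both mutants, with 1 point per library and a bar for mean and SD (n = 3), in the order L(3)mbt mutant, Lint-O mutant and yw. Ekar and RIC-3 are at like heights in both mutants, and Task7 is higher in L(3)mbt mutants than in Lint-O mutants.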

How the data were processed

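RNA-seq counts per gene were analysed for 9 libraries, 3 each of the L(3)mbt mutant, the Lint-O mutant and yw. Per the labels and the study's methods, poly-A RNA was prepared with a stranded mRNA kit, ribosomal RNA reads were removed, and the authors aligned the rest to dm6 with HISAT2. The submitters' processing notes also name featureCounts. The versions, the annotation and the use of strand are not given in the sources used here. The deposited values are raw read counts, neither normalized nor pooled by the authors. Columns were assigned by the sample descriptions, in which yw columns are named EGFP.

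Gene symbols and positions came from Ensembl release 115 (BDGP6, dm6 coordinates, 1-based) for 17559 of 17611 identifiers. DESeq2 1.42.0 (R 4.3.3) was fitted to all 9 libraries with 1 term per group, following the study's use of DESeq2 at 0.01, with median-of-ratios size factors, a two-sided Wald test and Benjamini-Hochberg adjustment over all genes tested. Independent filtering and Cook's cutoff were left at their defaults. CPM were computed from the counts and the library totals, 18681293 to 31519287. The fits were tested on simulated data with 200 changed genes. edgeR 4.0.16 (quasi-likelihood test), TMM and total-count size factors, other filters, a fit of 2 groups, a replicate block, other thresholds and each library left out were tried as alternatives. Filtering optimised at 0.01 was added after the data had been seen.

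The ion channel genes, the other lists and the tests were chosen with earlier results of these data known. Values in every library are given for each ion channel gene called in at least 1 mutant and for each with at least 10 CPM in all yw libraries, and, chosen after their values were seen, for tipE and GluClalpha. Further genes are named only if they are the mutated genes, listed markers, or listed channel or accessory genes called in both mutants. Exceptions are Teh4 and the neighbouring and overlapping genes, which were chosen after their values were seen. No sequence was used. Of the marker lists, those of blood cells, imaginal discs and fat body held 1 of 4, none of 4 and none of 3 genes with a higher call against yw in each mutant. The only lower call in these 3 lists was that of the blood cell marker srp in L(3)mbt mutants (log2 fold change -0.44).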

Additional observations from a re-analysis of the deposited data

How the results depend on the processing

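Counting an ion channel gene only at a change of at least 2-fold lowered the calls to 8 in L(3)mbt mutants against yw, 4 in Lint-O mutants against yw and 2 between the mutants, instead of 13, 8 and 8. The number present in yw depended on the limit chosen: 24 genes had over 3 counts, 7 had at least 10 CPM and 9 had at least 1 CPM per kb of exon in all yw libraries, instead of 14 at 1 CPM. Leaving out 1 library at a time gave 10 to 14, 7 to 9 and 6 to 8 calls. Shares over all genes under the alternatives are not given here, so nothing particular to the channel genes is read from these counts. No called gene changed direction under any alternative. The direction changed only for differences near 0 that were not called. SK was at 0.0037 in L(3)mbt mutants and 0.037 in Lint-O mutants with total counts as size factors, and leaving out 1 library gave -0.15 to 0.030, -0.10 to 0.083 and, between the mutants, -0.14 to 0.045. KCNQ in Lint-O mutants ranged over -0.00068 to 0.16 on leaving out 1 library. Between the mutants cac ranged over -0.12 to 0.084 and nAChRbeta2 over -0.0094 to 0.044, and nAChRbeta2 was at -0.0030 with edgeR, -0.0034 with TMM factors and -0.0026 with only the mutants in the fit. The cause of these shifts was not tested. Other scalings moved the median of all genes by at most 0.06 (log2). Same-numbered libraries did not deviate together (r from -0.17 to 0.12 over 8933 genes), so the numbers were not taken to pair the libraries. With the replicate block there were 12 calls in L(3)mbt mutants, 8 in Lint-O mutants and 7 between the mutants, KCNQ (0.44) and Shal between the mutants (0.83) being lost. Filtering optimised at 0.01, added after the data had been seen, gave 13, 8 and 8 calls. Depth limits what can be said of the 17 genes under 1 CPM in all libraries.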
